A study of Saccharomyces cerevisiae with 24 samples.

Results

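The genes described here encode the proteins of the yeast mitochondrial ribosome. They were taken by name as every open reading frame (ORF) of the deposited table whose standard gene name is MRPL, MRPS, MRP or RSM followed by a number, which gave 67 of 6251 ORFs. Of these 67, 38 belong to the large subunit and 28 to the small subunit, and the remaining gene, MRP8, carries such a name although its protein is not known as a ribosomal component. Among the 66 ribosomal members, 41 encode a protein with a bacterial ribosomal relative and 25 encode a mitochondria-specific protein, one with no counterpart in the bacterial ribosome.

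Gene expression was profiled on 24 Agilent arrays with 2 dyes, each of which compared poly(A) RNA of Saccharomyces cerevisiae exposed to hydrogen peroxide with RNA of untreated cells. Wild type cells (BY4741, a laboratory strain) were given the acute protocol (0.4 mM for 1 h), the adapted protocol (0.1 mM for 45 min and then 0.4 mM for 1 h) or the pretreatment alone (0.1 mM for 45 min). Cells with a deletion of MGA2, ROX1 or YAP1, each a single haploid strain of the deletion collection in the BY4741 background, were given the pretreatment. MGA2 encodes an activator of lipid synthesis genes, ROX1 a repressor of hypoxic genes and YAP1 the main activator of peroxide defence genes. There were 4 arrays in each of the 6 groups, from biological replicates, and treated RNA carried Cy5 on 2 and Cy3 on 2 of them. The labels of the deletion arrays call the reference RNA untreated without naming its strain, and the study's text describes the yap1 profile as one against wild type cells. If that RNA came from wild type, the ratios of these arrays, and every comparison built on them, also hold a difference between strains, which cannot be told apart here from the effect of the peroxide. The durations are those of the design text, while the study's methods can be read as 1 h of exposure for the pretreatment arrays too.

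The mitochondrial ribosome makes the few hydrophobic proteins that mitochondrial DNA encodes, most of them subunits of the respiratory chain and of the ATP synthase. Its RNAs come from the mitochondrial genome, whereas nearly all of its proteins are encoded in the nucleus, made in the cytosol and imported. The large subunit holds the peptidyl transferase centre and the exit tunnel, and the small subunit reads the messenger RNA.

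All 67 genes had values on every array of every group except MRPL24 and MRPL25, which had none in the rox1 deletion, so that 65 were measured there. Median spot intensity lay between 456.4 and 612.4 on the wild type arrays and between 1049.2 and 1491.9 on the deletion arrays. MGA2, ROX1 and YAP1 had no values in the strains that lack them. HIS3 and LEU2, which BY4741 lacks, had values on the pretreated and acute wild type arrays and none on the adapted or deletion arrays. URA3, which BY4741 also lacks, had values in every group except the rox1 deletion, so values are listed for absent genes in 5 of the 6 groups.

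In acutely treated cells many messenger RNAs of the mitochondrial ribosome rose by a small amount relative to the other messenger RNAs on the arrays. After quantile normalization the treated and untreated channels had like medians, 597.4 and 597.0 on acute replicate 1. A change in the total amount of messenger RNA would therefore not show in the ratios. A gene's value is its mean log2 ratio, treated over untreated, over the 4 arrays of a group, fitted with limma and called at a Benjamini-Hochberg adjusted p under 0.05 across all ORFs. By this measure 36 of the 67 members were raised and 0 were lowered, against 33.1% of all ORFs raised and 35.5% lowered (68.6% called in either direction). At an unadjusted p under 0.05, 37 members lay above 0 and 1 below, beside 2135 and 2295 of 6242 ORFs. The median log2 ratio was 0.25 over the members and -0.02 over all ORFs. The 35 ribosomal members called lay between 0.21 and 0.88 on the log2 scale, or 1.15-fold and 1.84-fold. The SD of the fitted values was 0.25 over the 66 ribosomal members and 0.85 over all ORFs, so the members lay closer together than ORFs did in general. In bulk RNA such as this, a change in the share of cells that express a gene and a change in RNA per cell cannot be told apart.

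**Figure D1:**
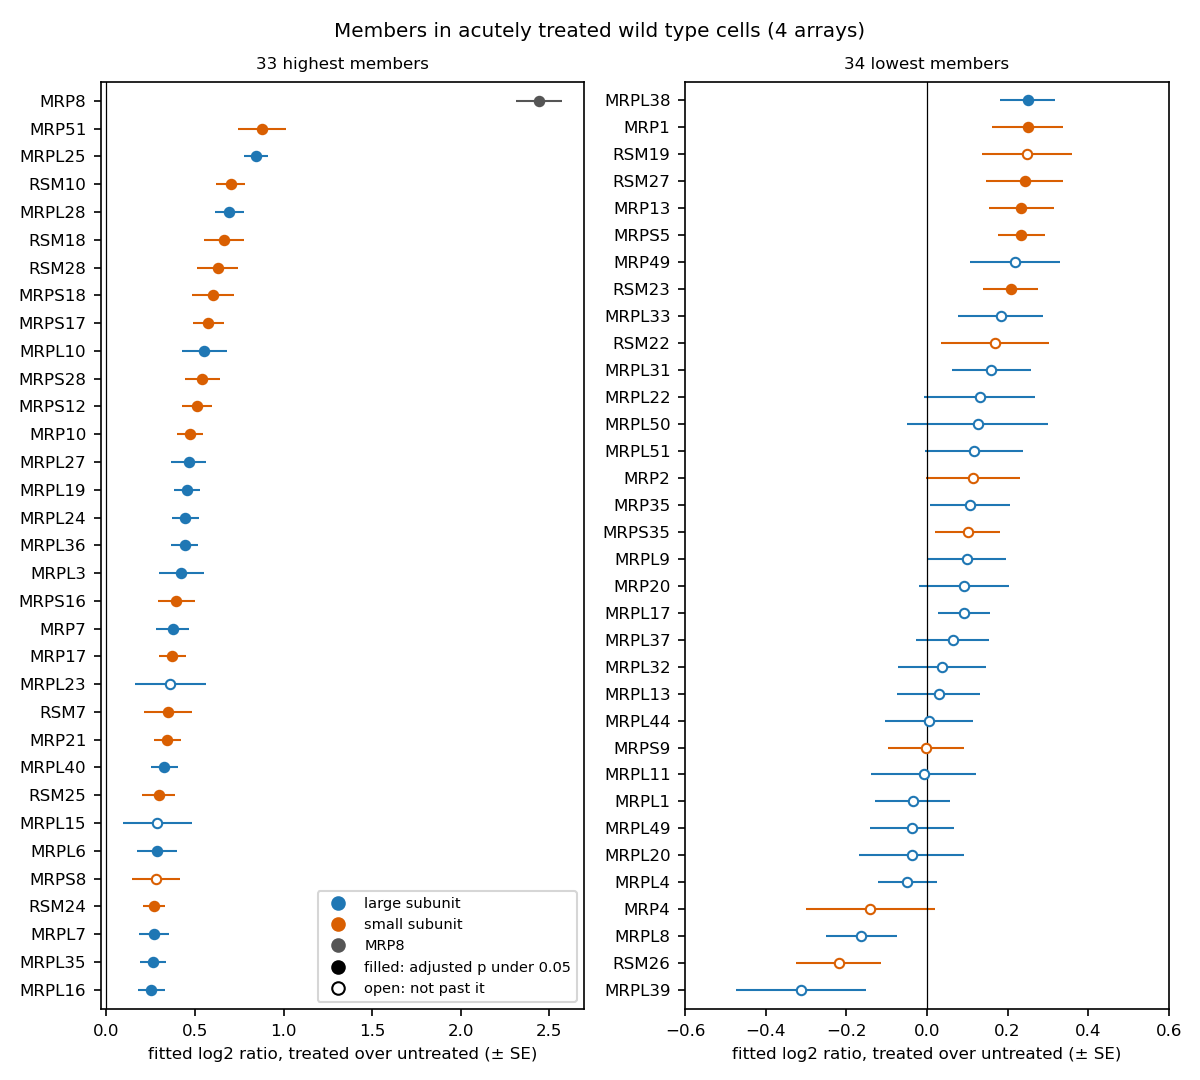
Fitted log2 ratio, treated over untreated, of each of the 67 members in acutely treated wild type cells (4 arrays). It is shown with its standard error from the fit to the arrays of all groups (x axes differ between the panels). Filled points passed an adjusted p of 0.05, and all 36 of them lie above 0. MRP8 stands apart at 2.44.

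The members of the small subunit supplied more of the calls. In acutely treated cells, 20 of 28 small subunit genes (71.4%) and 15 of 38 large subunit genes (39.5%) were raised, with medians of 0.29 and 0.17. Of the 12 ribosomal members with the highest values, 9 belong to the small subunit and 3 to the large one, and of the 10 members below 0, 7 belong to the large subunit and 3 to the small one. No test was made of this difference between subunits. On single arrays its sign went with the dye. The large subunit median minus the small subunit median was -0.25 and -0.19 on the arrays with treated RNA in Cy5, and 0.03 and 0.05 on those with treated RNA in Cy3. Proteins with a bacterial relative and mitochondria-specific proteins were raised in 22 of 41 and 13 of 25 cases, with medians of 0.27 and 0.23.

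Among small subunit genes, MRP51 (YPL118W), whose protein has been tied to the translation of the COX2 and COX3 messages, had the highest value. Its log2 ratio on the acute arrays was 0.46 and 0.46 with treated RNA in Cy5 and 1.07 and 1.53 with treated RNA in Cy3, and all 4 arrays lay above 0. The fitted value was 0.88 ± 0.14 (SE of the fit, limma, adjusted p = 5.22e-06). Here and below, the SE rests on the residuals of all groups after a dye term. It is not the spread of the 4 arrays of a group, which for MRP51 had an SD of 0.52. RSM10, a relative of bacterial S10, had 0.60, 0.36, 0.82 and 1.03 on the 4 arrays and a fitted value of 0.70 ± 0.084 (adjusted p = 1.38e-07). RSM18, a relative of bacterial S18, had 0.35, 0.27, 0.86 and 1.17 and a fitted value of 0.66 ± 0.12 (adjusted p = 2.52e-05). Both were thus above 0 on every acute array.

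MRP10, a small twin-cysteine protein brought in by the intermembrane space import route, varied little, with 0.54, 0.47, 0.57 and 0.31 and a fitted value of 0.47 ± 0.075 (limma, adjusted p = 8.62e-06). MRPS12, the relative of the S12 protein of the decoding centre, varied with the dye instead. It had 1.11 and 0.94 where treated RNA carried Cy5 and -0.19 and 0.20 where it carried Cy3, with a fitted value of 0.51 ± 0.084 (adjusted p = 1.29e-05). RSM19, a gene next to MRPS12 on chromosome XIV, had a fitted value of 0.25 ± 0.11 and was not called (adjusted p = 0.055).

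RSM26 and MRP1 encode small subunit proteins related to superoxide dismutases, and their values lay on opposite sides of 0 in acutely treated cells. MRP1 rose, at 0.25 ± 0.087 (limma, adjusted p = 0.0147), with 0.44 and 0.27 in Cy5 and -0.11 and 0.39 in Cy3. RSM26 had a fitted value of -0.22 ± 0.11 (adjusted p = 0.0695), with -0.60 and -0.59 in Cy5 and 0.35 and -0.04 in Cy3, the second lowest of all members. The difference between both genes was not tested. RSM23, a GTP-binding protein, was raised at 0.21, MRPS5 at 0.23 and MRPS28 at 0.54, while MRP4, a relative of bacterial S2, had -0.14 ± 0.16 and was not called (adjusted p = 0.45).

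In the large subunit, MRPL25 (YGR076C), a mitochondria-specific protein, had the highest value. Its log2 ratio on the acute arrays was 0.69 and 0.53 with treated RNA in Cy5 and 1.07 and 1.09 with treated RNA in Cy3, with a fitted value of 0.84 ± 0.069 (limma, adjusted p = 1.67e-09). MRPL28, also mitochondria-specific, had 0.90, 0.81, 0.49 and 0.57 and a fitted value of 0.69 ± 0.083 (adjusted p = 1.37e-07). Every acute array of both genes lay above 0.

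MRPL19, a relative of the L11 protein at the base of the factor-binding stalk, was raised at 0.45 ± 0.072 (limma, adjusted p = 8.18e-06). MRPL36, a relative of bacterial L31, was raised at 0.44, MRP7, a relative of the L27 protein near the peptidyl transferase centre, at 0.37, and MRPL16, a relative of bacterial L16, at 0.25. Of the genes for proteins around the exit tunnel, MRPL22 had a fitted value of 0.13, MRP20 of 0.09 and MRPL4 of -0.05, none of them called. MRPL40, a relative of the L24 protein of the same region, was raised at 0.33 ± 0.075 (adjusted p = 0.000552) and is named after its values were seen. The spread between arrays was wide for some of these. MRPL22 had -0.57 and -0.68 with treated RNA in Cy5 and 1.21 and 0.56 with treated RNA in Cy3, so that its arrays fell on both sides of 0 according to the dye.

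MRPL39, a relative of bacterial L33, had the lowest value of all members at -0.31 ± 0.16 (limma, adjusted p = 0.0922). Its 4 acute arrays were at -0.54, -0.65, -0.01 and -0.04, and no other member was below 0 on all 4. Of all ORFs, 28.5% were below 0 on all 4. MRPL8, a relative of bacterial L17, had a fitted value of -0.16 and MRPL20 one of -0.04, neither of them called.

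MRP8 (YKL142W) lay far above the ribosomal members. In acutely treated cells its log2 ratio was 2.26, 2.20, 2.55 and 2.77, with a fitted value of 2.44 ± 0.13 (5.44-fold; limma, adjusted p = 2.83e-13). On these arrays its intensity ran between 5098 and 9293 in treated cells and between 1068 and 1590 in untreated cells, with no overlap. The highest ribosomal member, MRP51, reached 1.84-fold.

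**Figure D2:**
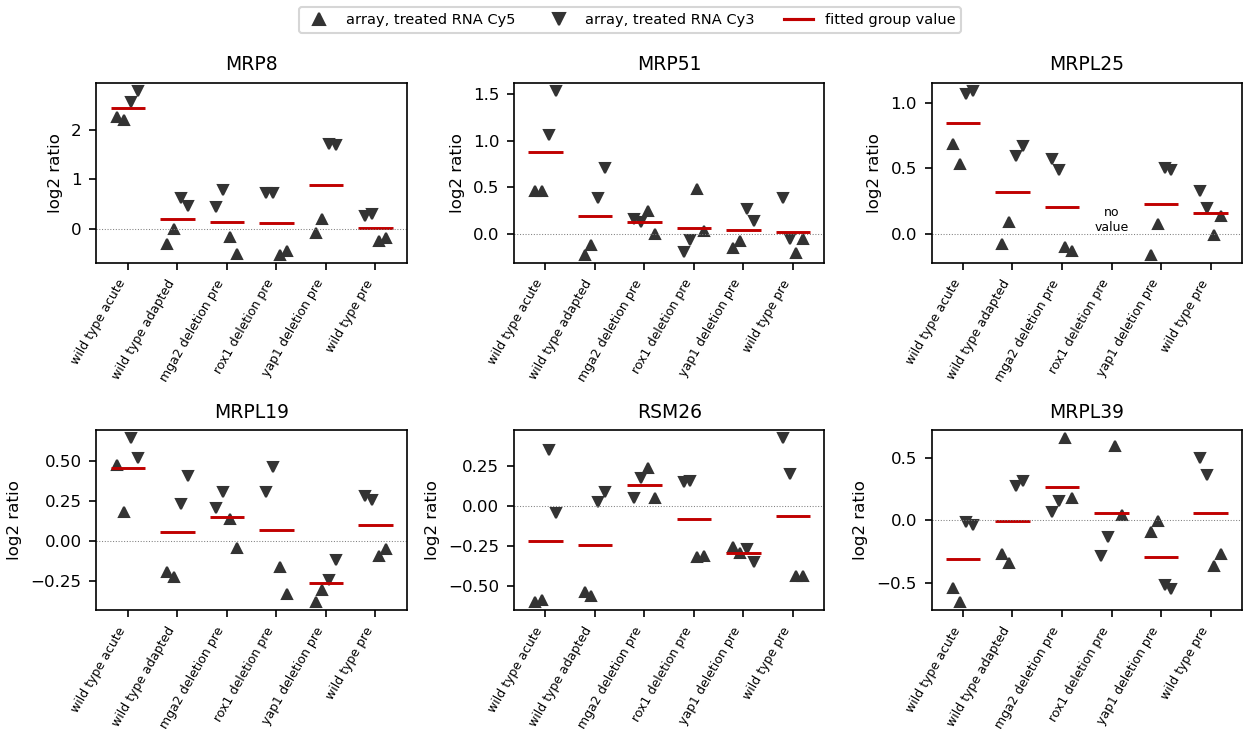
Log2 ratio, treated over untreated, on each array (triangles, pointing up where treated RNA carried Cy5 and down where it carried Cy3) and fitted group value (line) of 6 members in the 6 groups, with a y axis of its own for each gene. MRP8 lies above 2 on all 4 acute arrays, MRPL25 has no value in the rox1 deletion, and MRPL19 lies below 0 on all 4 arrays of the yap1 deletion.

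The genes around the mitochondrial ribosome did not all move with it in acutely treated cells. Over all ORFs, 33.1% were raised and 35.5% lowered. Of 13 further ribosomal genes that carry other names, 8 were raised and 0 lowered (median 0.31), and of 13 mitochondrial tRNA synthetases 9 were raised and 0 lowered (median 0.38). Nuclear genes of the ATP synthase were raised in 13 of 17 cases and lowered in 0 (median 0.57), and citric acid cycle genes were raised in 7 and lowered in 2 of 11 (median 0.70). Translation factors and assembly proteins were raised in 9 (40.9%) and lowered in 5 (22.7%) of 22 (median 0.12).

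Calls in both directions were also seen for genes of mitochondrial DNA and RNA metabolism, 9 raised and 11 lowered of 29, for nuclear respiratory chain genes, 8 and 10 of 28, and for protein import, 12 and 10 of 40. Of 7 genes encoded by mitochondrial DNA, 0 were raised and 4 were lowered, with values between -1.37 and 0.60 (median -0.27). The RNA was purified by its poly(A) tail, and how far this purification keeps mitochondrial transcripts was not tested. These 7 values may therefore not reflect the amount of the transcripts. The cytosolic ribosome went the other way from the mitochondrial one. Of 75 measured genes of its large subunit 70 were lowered and 1 raised (median -1.50), of 55 of its small subunit 53 were lowered and 0 raised (median -1.49), and all 59 ribosome biogenesis genes were lowered (median -1.30).

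**Figure D3:**
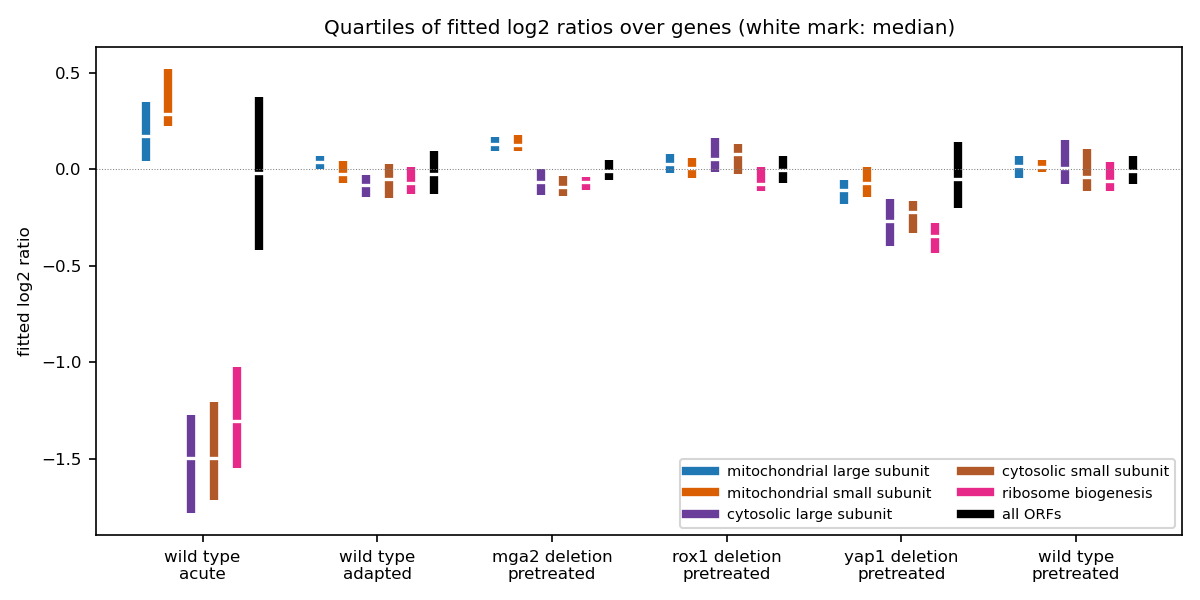
Quartiles (bars) and median (white mark) of the fitted log2 ratio over the genes of each set, in the 6 groups. In acutely treated cells both mitochondrial subunits lie above 0, with medians of 0.17 and 0.29, and both cytosolic subunits near -1.5.

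In adapted cells, which met the same high dose after the pretreatment, the ratios of the members lay near 0. There 1 of 67 members, MRPL25, was raised and 0 were lowered, against 6.85% of all ORFs raised and 6.05% lowered (12.9% in all), and the median was 0.03. MRPL25 had -0.07 and 0.10 on the adapted arrays with treated RNA in Cy5 and 0.59 and 0.67 on those in Cy3. Its fitted value was 0.32 ± 0.069 (limma, adjusted p = 0.00378), and it lost its call without the dye term (adjusted p = 0.338). RSM7, a relative of bacterial S7, came next among the ribosomal members at 0.22 (adjusted p = 0.305), and RSM26 was the lowest at -0.25 (adjusted p = 0.133).

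Set directly against each other, the ratios of acute cells exceeded those of adapted cells for 24 of 67 members and were below them for 0, against 26.8% of all ORFs higher and 26.4% lower (53.3% in all). The median difference was 0.26 over the members and 0.00 over all ORFs. By subunit, 15 of 28 small and 8 of 38 large subunit genes were higher in acute cells, with median differences of 0.31 and 0.16. The largest differences among ribosomal members were those of MRPS17, a relative of bacterial S17, at 0.71 ± 0.12 (limma, adjusted p = 4.4e-05), MRP51 at 0.69 ± 0.19 (adjusted p = 0.00427) and RSM10 at 0.66 ± 0.12 (adjusted p = 6.1e-05). MRPS17 was at 0.62, 0.55, 0.60 and 0.52 on the acute arrays, against -0.27, -0.28, 0.01 and -0.01 on the adapted arrays, with no overlap. MRP8 differed by 2.25 ± 0.18 (adjusted p = 1.3e-09). Without a dye term the number of members higher in acute cells was 10, and with a dye term for each group it was 36, with 1 lower.

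Against pretreated cells, acute cells had higher ratios for 25 of 67 members and lower ratios for 0, beside 28.3% and 29.5% of all ORFs (57.8% in all). These were 13 of 28 small subunit genes, 11 of 38 large subunit genes and MRP8. MRP51 differed by 0.86 ± 0.19 (limma, adjusted p = 0.00058), RSM18 by 0.74 ± 0.16 (adjusted p = 0.000513) and MRPL25 by 0.68 ± 0.097 (adjusted p = 6.83e-06). Without a dye term 13 members passed. This comparison shares the acute arrays with the one against adapted cells.

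Pretreatment alone left no member past the threshold in wild type cells. The limma fit raised 0 and lowered 0 of 67 members at a background of 0.706% of ORFs. At an unadjusted p under 0.05, 1 member lay above 0 and 0 below, beside 248 and 280 of 6232 ORFs. Fitted values ran between -0.15 for RSM22 and 0.20 for MRPS18, with a median of 0.02. No member kept 1 sign on all 4 arrays, whereas 5.75% of ORFs were above 0 and 6.5% below 0 on all 4. Between adapted and pretreated cells 0 of 67 members differed, at a background of 0.451%. At an unadjusted p under 0.05, 0 members differed, beside 338 ORFs above 0 and 270 below of 6207. MRP8 had a ratio of 0.20 in adapted and 0.03 in pretreated cells, and neither was called. The member median fell below 0 without replicate 3 (-0.02) or 4 (-0.01) of the adapted arrays and without replicate 4 of the pretreated arrays (-0.0026).

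Single-array values of the members moved with the dye. On the arrays with treated RNA in Cy3 the member median was 0.23 and 0.19 in adapted cells and 0.25 and 0.08 in pretreated cells, and with treated RNA in Cy5 it was -0.22 and -0.14 in adapted cells and -0.17 and -0.12 in pretreated cells. Acute arrays showed the same offset, at 0.45 and 0.52 in Cy3 and 0.10 and 0.02 in Cy5, yet none of their medians was below 0. In each deletion strain, too, both Cy3 member medians lay above both Cy5 ones. The fitted dye term was below 0 (lower ratios with treated RNA in Cy5) for 53 of the 67 members, against 49.9% of all ORFs. Each group holds both dye orientations equally, so the offset cancels in the group values. In adapted cells the large subunit median minus the small subunit median was 0.03, 0.002, 0.09 and 0.18 on the 4 arrays, none of them below 0. It was below 0 on all 4 arrays of the rox1 deletion, at -0.02, -0.0024, -0.06 and -0.10, and of the yap1 deletion, at -0.01, -0.02, -0.03 and -0.05. Its sign varied between arrays in acute cells, in the mga2 deletion and in pretreated wild type cells.

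**Figure D4:**
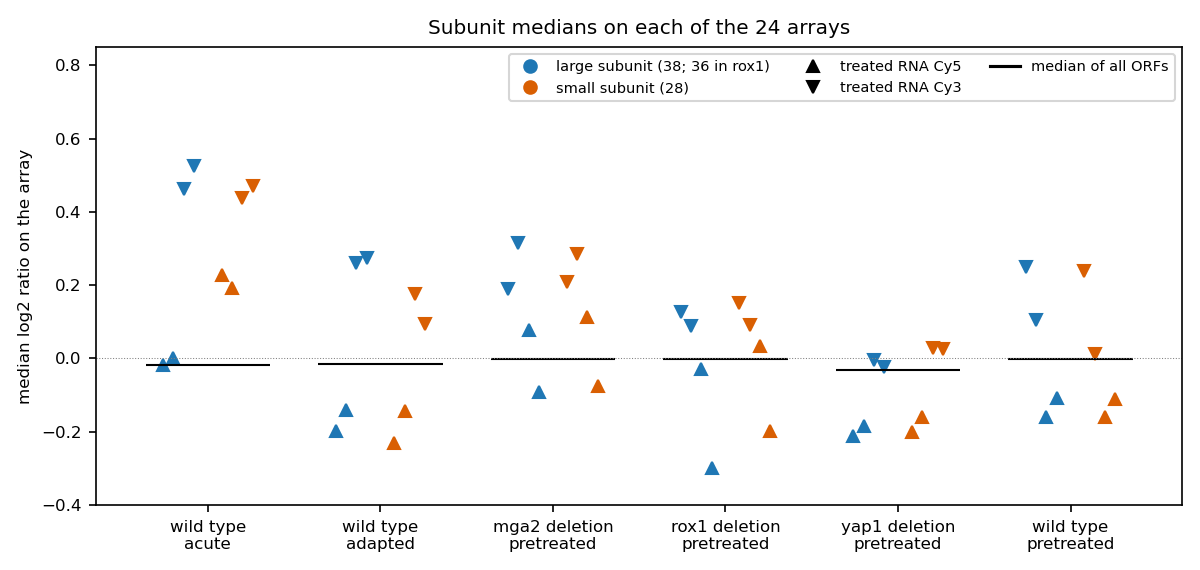
Median log2 ratio, treated over untreated, of the large and small subunit genes on each of the 24 arrays, with the dye of the treated RNA marked by the direction of the triangle. Lines give the median of all ORFs in a group. In all 6 groups every Cy3 median lies above the Cy5 medians of the same subunit.

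In the yap1 deletion 10 of 67 members were called, in both directions. Of these, 8 were lowered (11.9% of the members) and 2 raised (2.99%), against 18.3% and 16.4% of all ORFs (34.7% in all), and the median was -0.10 over the members and -0.05 over all ORFs. The count of members called was 6 without replicate 2 of this group, 5 without replicate 3 and 4 without replicate 4, and 2 without a dye term. All 4 arrays were below 0 for 18 members and above 0 for 2, or 26.9% and 2.99%, against 22.6% and 18.3% of ORFs.

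The lowered members were 5 of the large and 3 of the small subunit. MRPL20, a mitochondria-specific protein, had -0.50, -0.61, -0.13 and -0.14 on the yap1 deletion arrays and the lowest fitted value at -0.34 ± 0.13 (limma, adjusted p = 0.0439). RSM26 varied little, at -0.26, -0.29, -0.27 and -0.35, with a fitted value of -0.29 ± 0.11 (adjusted p = 0.0344). MRPS9, a relative of bacterial S9, had -0.71 and -0.69 with treated RNA in Cy5 and 0.24 and -0.13 in Cy3, and a fitted value of -0.32 ± 0.094 (adjusted p = 0.0105). MRPL8 at -0.29, MRPL19 at -0.26 and RSM23 at -0.24 were also lowered. The remaining 2, MRPL37 at -0.25 and MRPL17 at -0.21, are named here after their values were seen. In the same cells 42 of 59 ribosome biogenesis genes, 29 of 76 genes of the cytosolic large subunit and 13 of 56 of the small one were lowered. The share lowered over all ORFs was 18.3%.

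The 2 members raised in the yap1 deletion were MRP8 and MRPL25. MRP8 had log2 ratios of -0.08 and 0.19 with treated RNA in Cy5 and of 1.71 and 1.68 in Cy3, against -0.25 and -0.19 in Cy5 and 0.25 and 0.29 in Cy3 in pretreated wild type cells. Within each dye the yap1 deletion arrays were thus the higher ones, and the dyes differed more in the deletion. Its fitted values were 0.88 ± 0.13 (limma, adjusted p = 2.04e-05) in the yap1 deletion and 0.03 ± 0.13 (adjusted p = 0.974) in wild type. The SD of the MRP8 ratios was 0.95 over the 4 yap1 deletion arrays, a spread that the SE of the fit does not show. MRPL25 was raised at 0.23 ± 0.069 (adjusted p = 0.0148) in the deletion.

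Between the ratios of the pretreated yap1 deletion and of pretreated wild type, 1 member was higher and 1 lower, against 9.99% and 6.16% of ORFs (16.1% in all). MRP8 was higher by 0.85 ± 0.18 (limma, adjusted p = 0.00267). MRPL19 was lower by a log2 difference of -0.36 ± 0.10 (adjusted p = 0.0184), with -0.38 and -0.31 in Cy5 and -0.25 and -0.12 in Cy3 on the yap1 deletion arrays, against -0.09 and -0.05 in Cy5 and 0.28 and 0.26 in Cy3 on the wild type arrays. Those of the deletion were the lower ones, with no overlap. Without replicate 3 of the yap1 deletion MRPL19 was not called (adjusted p = 0.0716), and without a dye term neither gene was called (adjusted p = 0.277 for MRP8 and 0.303 for MRPL19).

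In the mga2 deletion no member passed the threshold, yet nearly all of them lay a little above 0. The limma fit called 0 of 67 members at a background of 0.0177% of ORFs. At an unadjusted p under 0.05, 8 members were above 0 and 0 below, beside 118 and 64 of 5651 ORFs. Fitted values were above 0 for 66 of 67 members, against 46.3% of all ORFs, with a median of 0.13 over the members and -0.01 over all ORFs. The large subunit median was 0.13 and the small subunit median 0.12. RSM19 had 0.39 and 0.59 with treated RNA in Cy3 and 0.44 and -0.09 in Cy5. Its fitted value was the highest, at 0.33 ± 0.11 (limma, adjusted p = 0.999). MRPL39 followed at 0.26 and MRPL44 at 0.25, and RSM24 was the only member below 0, at -0.01.

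On single arrays of the mga2 deletion the member median was 0.21 and 0.31 with treated RNA in Cy3 and 0.08 and -0.08 in Cy5. Replicate 4, in Cy5, thus stood below the median of all ORFs there. Averaged within a dye, the members had a median of 0.25 in Cy3 and 0.0025 in Cy5. Leaving out 1 array at a time gave group medians between 0.09 and 0.17. The 4 pretreated wild type arrays had member medians of 0.25 and 0.08 in Cy3 and of -0.17 and -0.12 in Cy5. Between the mga2 deletion and wild type, 0 of 67 members differed by limma, with a median difference of 0.11. The background was 0.0177% at the adjusted threshold. At an unadjusted p under 0.05, a threshold to which that background does not apply, 1 member lay above 0 and 0 below. Other sets in this strain had medians of 0.14 for the 11 citric acid cycle genes, 0.10 for the tRNA synthetases and -0.09 for the cytosolic small subunit.

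In the rox1 deletion 0 of the 65 measured members were called by limma, at a background of 0.0912%. At an unadjusted p under 0.05, 0 members passed, beside 159 ORFs above 0 and 146 below of 4385. Fitted values ran between -0.12 for MRPL23 and 0.23 for MRPS8 with a median of 0.01, which turned to -0.03 without replicate 3. Against wild type 0 of 65 differed at a background of 1.51% at the adjusted threshold, and 0 differed at an unadjusted p under 0.05. The comparisons of the 3 deletion strains share the pretreated wild type arrays.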

How the data were processed

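Purified poly(A) RNA of treated and untreated cells was labelled with Cy3 or Cy5 and hybridized to Agilent expression arrays. The authors quantified the arrays with GenePix, corrected the background, applied quantile normalization and deposited the table of intensity values for each channel and ORF that was used here. No genome build was needed. A table of unnamed spots was not used.

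Log2 ratios, treated over untreated, were computed here from the deposited intensities. Names came from RefSeq, which matched 5751 of 6251 ORFs. One linear model with 6 groups and a gene-specific dye term was fitted per ORF to all 24 arrays, on the groups in which an ORF had values. Variances were moderated with limma 3.58.1 in R 4.3.3 (prior degrees of freedom 4.5), and two-sided p-values were adjusted by Benjamini-Hochberg over all ORFs of a comparison and called under 0.05. The same-numbered arrays showed no common deviation at the median (median r -0.0357, range -0.652 to 0.641), and no block was used. The precision is limited by 4 arrays a group. The median standard error of a member was 0.0984 for a group value and 0.139 for a difference between groups. These standard errors come from the fit to all 24 arrays. Figures were drawn with matplotlib 3.10.9.

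Members and lists were chosen with earlier results of these data known. Members named were the 6 highest and 6 lowest of each comparison, every member called where 6 or fewer were, the highest and lowest of each subunit, MRP8, and 20 members with a well known place in the ribosome. Alternatives were no dye term, a dye term per group, median centring, loess, complete ORFs, separate fits, a replicate block and leaving out each array. Sequence motifs were not searched.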

Additional observations from a re-analysis of the deposited data

Results flagged for a closer look

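The difference between the MRP8 ratios of the pretreated yap1 deletion and of pretreated wild type cells passed the test of the difference itself, at a log2 difference of 0.85. So did that of MRPL19, at -0.36. Among the 4 pretreated wild type arrays, replicate 2 stood apart in the large subunit median minus the small subunit median, at 0.0934 on the log2 scale, while the other arrays lay between -0.002 and 0.0105. It was 1 of 59 groups of 4 arrays looked at. The cutoff sets a sample apart in about 1 of 20 groups of 4 like, normally distributed values. Each group here holds 2 arrays of each dye orientation, so that rate need not apply. Apart from the medians of members and subunits, the groups were those of members already called.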

How the results depend on the processing

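Of 352 values of named members, 58 were called, and 0 of these changed sign under any alternative run. Only median centring, loess and leaving out an array could change a sign, as every group is balanced for dye and replicate number. The other alternatives keep each fitted value and change its standard error or adjusted p, or leave out ORFs. Without a dye term 27 of the 58 lost their call. In that fit the number of members called was 0 in adapted cells, 2 in the yap1 deletion, 10 between acute and adapted cells, 13 between acute and pretreated cells and 0 between the yap1 deletion and wild type. With a dye term per group these numbers were 4 in adapted cells, 17 in the yap1 deletion, 37 between acute and adapted cells and 9 between the yap1 deletion and wild type. With the arrays of a comparison fitted alone they were 5 in pretreated cells, 4 in adapted cells, 27 in the yap1 deletion and 37 between acute and adapted cells. With only ORFs measured on all 24 arrays, which leaves out MRPL25, 0 members were called in adapted cells. The fitted values were unchanged in all of these fits, and the other counts moved with the standard errors and adjusted p-values. Leaving out each array gave 4 to 11 members in the yap1 deletion and 1 to 3 between it and wild type, and 31 to 37 in acute cells, where the other alternatives gave 25 to 48. With a replicate block, 36 members were called in acute cells, 25 between acute and adapted cells, 24 between acute and pretreated cells, 8 in the yap1 deletion and 2 between it and wild type. No pairing of arrays by replicate number was seen, as 6 of 24 arrays correlated best with their own among 4 numbers. Correlations of same-numbered arrays ran between -0.652 and 0.641. Within a group the numbers go with the dye orientation, so this check cannot settle whether arrays were paired. The search for binding motifs and promoter sequences was not run, as no sequence was used here.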
